A study of Mus musculus with 4 samples.

Results

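Shallow barcodes with none of 4 leukocyte marker genes detected were found in 4 single-cell libraries of mouse ascites, 95.001% of them in a single library. They carried RNAs of the hypoxia response. A barcode is the DNA tag of a single droplet, and a UMI (unique molecular identifier) count is the number of distinct captured RNA molecules. A barcode was taken into the class when it had at least 500 and under 800 detected genes, at most 15% mitochondrial UMIs, under 20% hemoglobin UMIs, under 1% S100a8 and S100a9 UMIs, and no UMI of Ptprc, Cd79a, Cd3e or C1qa. These genes mark all leukocytes, B cells, T cells and macrophages in turn, and S100a8 and S100a9 mark neutrophils. The term marker-free below refers to Ptprc, Cd79a, Cd3e and C1qa alone. Most barcodes of the class held UMIs of other leukocyte, mast cell or platelet genes. The rule was met by 26806 of 132644 kept barcodes (20.2%), where kept barcodes had 100 to 4800 genes and at most 15% mitochondrial UMIs. These barcodes were thus chosen by measured values, namely the number of genes and the UMIs of the genes in the rule. The scarcity of the rule's genes in them follows from the choice, and that of other leukocyte RNA is not read as a result.

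Ascites was taken 6 weeks after female FVB/NJ mice received Br-Luc tumor cells (p53-/-; brca1-/-; myc; Akt-myr) into the peritoneal cavity. All mice carried these tumors and were given LNA-modified siRNA in jetPEI, a scrambled control in the siCont group and a sequence against Fxr1 in the siFXR1-LNA group. Each group had 2 libraries, and each sample was a pool of ascites from 3 mice by the methods, so no value could be assigned to a single mouse and the spread between libraries may be partly technical. By its methods, the study set one siFXR1-LNA library aside for fewer reads and cells, without saying which, whereas both are used here. The 4 deposited matrices held 17309 to 54665 barcodes and 78179267 to 113606837 UMIs. The target gene Fxr1 (chr3:34019943-34070322, plus strand, GRCm38) had 57.3 and 36.6 CPM (counts scaled to a total of 1e6 UMIs) over all barcodes of siCont replicates 1 and 2. In siFXR1-LNA replicates 1 and 2 it had 104 and 74.4 CPM. It was therefore not lower in the libraries labelled siFXR1-LNA, and every direction between groups below refers to the labels. In the shallow marker-free barcodes Fxr1 had 77.0, 43.5, 127 and 113 CPM in the same order, from 35, 7, 3970 and 89 UMIs, with both libraries labelled siFXR1-LNA again above both siCont libraries.

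Cells short of oxygen stabilize HIF transcription factors, which bind a short core motif near their target genes and raise glucose transport, glycolysis, pH control and angiogenic signals. Ascites tumor cells often grow as spheroids whose inner cells receive little oxygen, and carbonic anhydrase 9 and VEGF-A are classic readouts of this state. In droplet libraries, a droplet that holds no cell still captures RNA dissolved in the suspension, and shallow profiles can be of either kind. Whether a cell was present under any of these barcodes was not tested.

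The 6 genes by which the class was described have varied roles, and barcodes outside it carried their RNAs too. Car9 (chr4:43506966-43513729) encodes carbonic anhydrase 9 at the cell surface, and Ndufa4l2 (chr10:127514967-127517154) encodes a mitochondrial protein induced by HIF that restrains respiration. Ccn2 (chr10:24595442-24598683) encodes connective tissue growth factor, Tfrc (chr16:32608920-32632794) the transferrin receptor for iron uptake, Stbd1 (chr5:92603041-92606579) a glycogen-binding protein, and Sprr1a (chr3:92483952-92485895) a small proline-rich protein of the cornified envelope. RefSeq promoters (GRCm38.p6) existed for 4 of these genes, and the 250 bases before the start site were searched on both strands for the HIF core motifs ACGTG and GCGTG, which can read CACGT and CACGC on the printed strand. Matches in Car9, in the upstream of the RefSeq promoters of Tfrc and in Stbd1 are shown in capitals because the class was described by its hypoxia transcripts. All windows are 30 bases on the plus strand, at chr4:43506996-43507025 for Car9, chr16:32608766-32608795 and chr16:32608818-32608847 for Tfrc, and chr5:92602847-92602876 for Stbd1.
Car9: ctatttccgatgCACGTacagcccgtccac
Tfrc, first window: ccgcagccaatcgCACGCgctctcccgaca
Tfrc, further window: taggctactccgcgCACGCactggctgcgc
Stbd1: accgggctcttctgGCGTGggataaagtgg

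In these sequences the match began 18 bases before the start site of Car9, 117 and 64 bases before the upstream start site of Tfrc and 190 bases before that of Stbd1. A further RefSeq promoter of Tfrc, not shown, held matches 228, 134 and 42 bases before its own start site. Start sites are those of RefSeq, and that of Car9 lies inside the gene as GENCODE places it, so the window shown for Car9 does too. Sprr1a had no match in its window. Of the listed HIF targets with a RefSeq promoter, 18 of 19 held a match, and of the listed glycolysis genes 15 of 17 did. The share over all genes with a promoter was 41.5% (11226 of 27025), so a match alone is common and is given here as a description.

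The class was very unequally divided among the libraries. It held 429 of 36311 kept barcodes (1.18%; 95% exact binomial interval 1.07 to 1.30%) in siCont replicate 1 and 150 of 25115 (0.597%; 0.506 to 0.700%) in siCont replicate 2. The library labelled siFXR1-LNA replicate 1 held 25466 of 54344 (46.9%; 46.4 to 47.3%) and siFXR1-LNA replicate 2 held 761 of 16874 (4.51%; 4.20 to 4.83%). Both libraries labelled siFXR1-LNA were above both siCont libraries, but siFXR1-LNA replicate 1 alone supplied 95.001% of all such barcodes and stands apart from the other 3. These intervals, like all others here, cover counting error only.

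The group means were 0.889% ± 0.413 (SD, n = 2) and 25.7% ± 29.9 (SD, n = 2). Their difference of 24.8 percentage points had an exact two-sided permutation p of 0.333, the smallest that 2 libraries against 2 can give. Without siFXR1-LNA replicate 1 the difference was 3.62 percentage points, and with hemoglobin held under 5% it was 16.7. Because the rule set the share, these values are a description of where the barcodes lie.

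**Figure D1:**
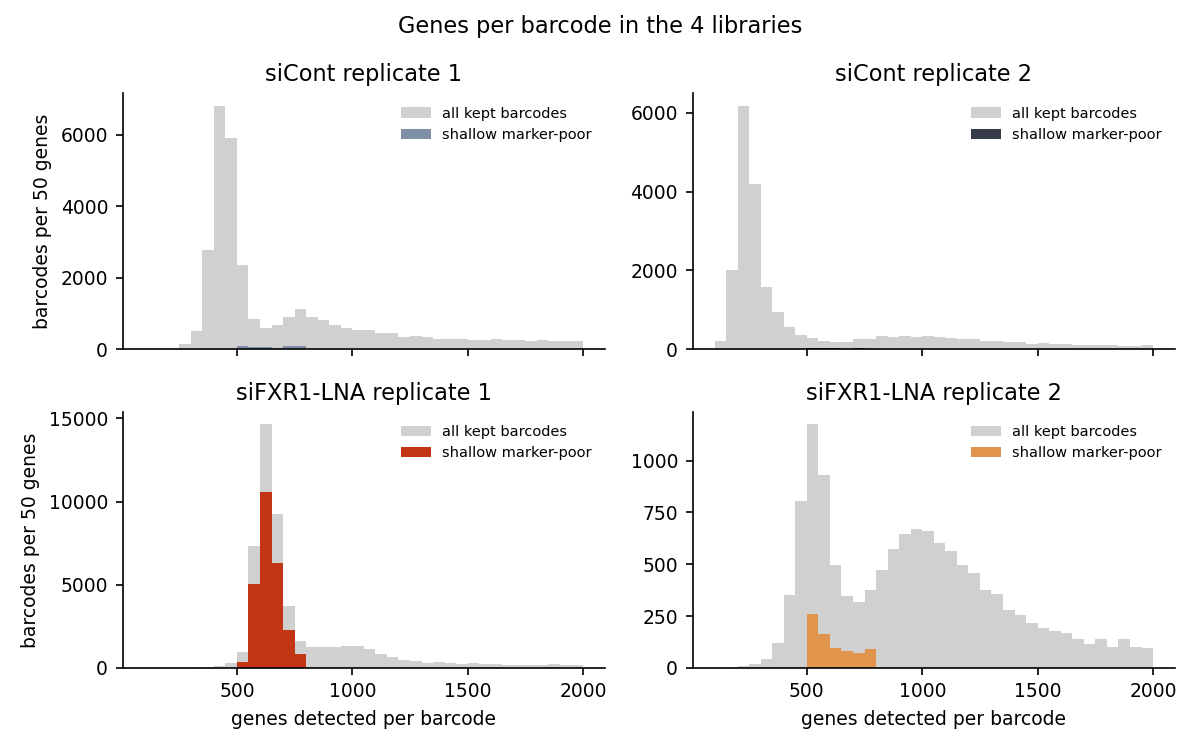
Number of barcodes (vertical axis) by detected genes per barcode in bins of 50 genes (horizontal axis, under 2000 genes), a panel per library, with all kept barcodes in grey and the shallow marker-free barcodes in colour. In siFXR1-LNA replicate 1 the coloured barcodes form a narrow peak with a median of 633 genes, while in the other 3 libraries they are few.

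The barcodes of siFXR1-LNA replicate 1 were also alike in depth. Their UMI counts had a coefficient of variation of 9.94% around a median of 1210, with a 5th percentile of 1085 and a 95th percentile of 1460 UMIs. In siCont replicates 1 and 2 and siFXR1-LNA replicate 2 the medians were 1017, 1046.5 and 978 UMIs and the coefficients of variation 24.2%, 23.7% and 20.1%. Median depth thus lay in a narrow range in all 4 libraries, as the gene limits of the rule ensure, while the spread was smallest in siFXR1-LNA replicate 1. That library had a sharp lower edge in UMIs. Of its barcodes that met the rule without the gene limits, 62 had 1000 to 1050 UMIs, 2440 had 1050 to 1100 and 4758 had 1100 to 1150, and the numbers fell steadily above. The part of this edge in the small spread was not tested.

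At the edges of the rule, siFXR1-LNA replicate 1 had 56 barcodes with 450 to 500 genes and 337 with 500 to 550, otherwise meeting it, with median UMIs of 772.5 and 1098. It had 849 with 750 to 800 genes and 546 with 800 to 850, with medians of 1476 and 1541 UMIs. Neither gene limit cut through the peak in that library. In siCont replicate 1 the corresponding counts were 178, 80, 89 and 68, so the lower limit there ran along the flank of a shallower population.

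Broad RNA classes set these barcodes apart from the deeper ones of the same libraries, that is, all kept barcodes with at least 800 genes and under 20% hemoglobin. Mitochondrial RNA took 0.916%, 1.19%, 0.347% and 0.720% of the UMIs in siCont replicates 1 and 2 and siFXR1-LNA replicates 1 and 2, against 1.27%, 1.25%, 1.46% and 1.10% in the deeper barcodes. It was lower in the shallow barcodes in all 4 libraries, by the most in siFXR1-LNA replicate 1. The rule caps mitochondrial RNA in both classes at the same level.

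A pair of overlapping genes on opposite strands of chromosome 17, Gm42418 (chr17:39846958-39848788) and AY036118 (chr17:39847113-39848035), which collect reads of ribosomal RNA, went the other way. Together they took 8.46%, 7.89%, 17.5% and 11.7% of the UMIs in the shallow barcodes and 3.81%, 4.46%, 8.42% and 6.16% in the deeper ones. Their reads could not be told apart between the pair. Hemoglobin took 5.24%, 3.07%, 4.97% and 1.31% of the UMIs in the shallow barcodes, so red cell RNA was present in every library below the limit of the rule. After Gm42418, the genes with most UMIs of the class in siFXR1-LNA replicate 1 were Cmss1 (44084 CPM), Hbb-bs (38457 CPM) and Saa3 (12275 CPM).

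The 6 leading genes were far more abundant in this class in the libraries labelled siFXR1-LNA. Ccn2 had 147 and 12.4 CPM (67 and 2 UMIs) in the class in siCont replicates 1 and 2, against 766 and 437 CPM (24004 and 344 UMIs) in the siFXR1-LNA replicates. Tfrc had 35.2 and 18.6 CPM (16 and 3 UMIs) against 594 and 206 CPM (18622 and 162 UMIs). For both genes the groups did not overlap, and siFXR1-LNA replicate 1 was the highest library.

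Ndufa4l2 had 13.2 and 6.21 CPM in the siCont libraries, from 6 and 1 UMIs, against 173 and 177 CPM in siFXR1-LNA replicates 1 and 2. Car9 had 4.40 and 12.4 CPM, from 2 UMIs each, and 97.2 and 48.3 CPM. Sprr1a had 6.60 and 0 CPM, from 3 and 0 UMIs, and 97.0 and 17.8 CPM. The lower of the labelled siFXR1-LNA libraries was above both siCont libraries for each of these genes, although the siCont levels rest on a few UMIs.

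Stbd1 was not detected in the class in either siCont library, where 3 UMIs, taken as the limit that a count of 0 allows, equal 6.60 and 18.6 CPM. It had 96.5 and 52.1 CPM in siFXR1-LNA replicates 1 and 2. Both values were above these limits. The genes were chosen with their levels known, so no test is given for them.

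The 2 libraries labelled siFXR1-LNA did not share a common profile of the 6 genes. The ratio of siFXR1-LNA replicate 1 to replicate 2 was 5.45 for Sprr1a, 2.88 for Tfrc, 2.01 for Car9, 1.85 for Stbd1, 1.75 for Ccn2 and 0.976 for Ndufa4l2. Sprr1a therefore marked siFXR1-LNA replicate 1 most, and Ndufa4l2 was equally abundant in both.

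**Figure D2:**
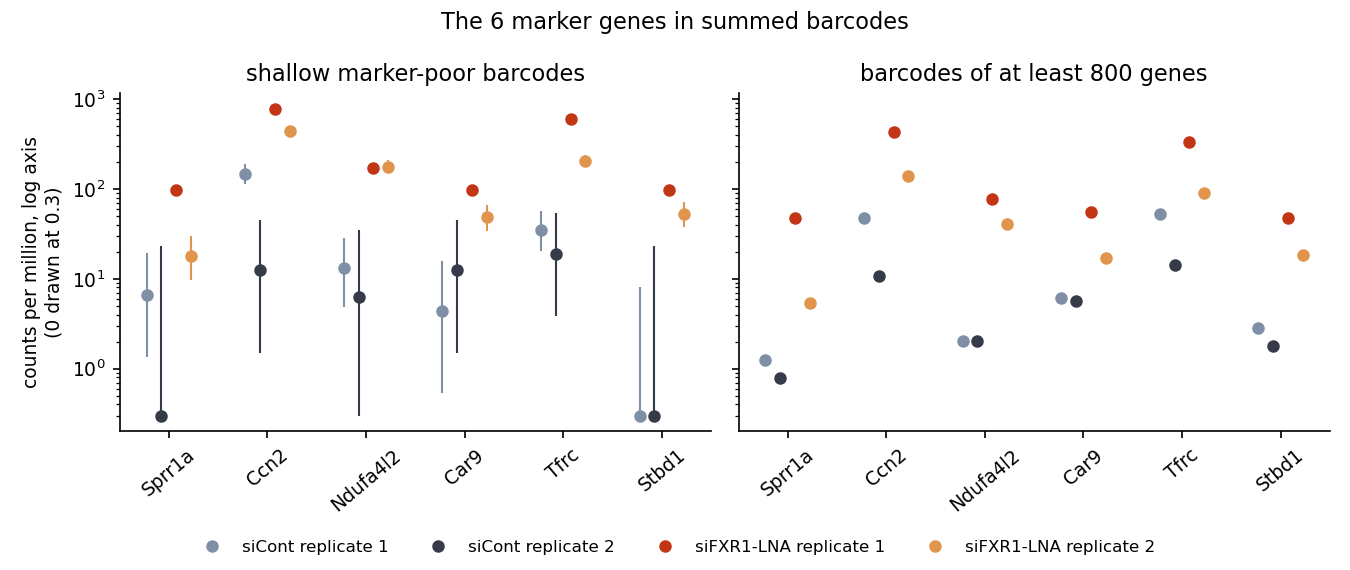
Level in CPM (log axis; 0 drawn at 0.3) of the 6 leading genes in the 4 libraries, on the left in shallow marker-free barcodes with 95% Poisson intervals and on the right in deeper barcodes. Each gene is higher in both libraries labelled siFXR1-LNA than in both siCont libraries in the left panel, from 17.8 CPM for Sprr1a to 766 CPM for Ccn2.

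Hypoxia transcripts were not confined to the class. Summed over 24 listed HIF targets, the class had 1311 and 1856 CPM in siCont replicates 1 and 2, against 4342 and 3751 CPM in the siFXR1-LNA replicates. The deeper barcodes, with at least 800 genes, had 1168, 1359, 4084 and 3284 CPM in the same order. The groups did not overlap in either class, and the class was above the deeper barcodes in each library. The Wt1-positive barcodes (with a UMI of Wt1 and 800 or more genes) had 1294, 1784, 4644 and 3959 CPM, so the class was above them in the siCont libraries and under them in the siFXR1-LNA ones.

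The 6 leading genes showed the same direction outside the class. In the deeper barcodes Ccn2 had 47.0, 10.9, 425 and 138 CPM in siCont replicates 1 and 2 and siFXR1-LNA replicates 1 and 2, and Tfrc had 52.9, 14.2, 332 and 89.2 CPM. Summed over the 6 genes, the shallow marker-free barcodes had 207, 49.7, 1823 and 938 CPM, and the deeper ones 112, 35.4, 984 and 309 CPM. Barcodes with a UMI of Wt1, a transcription factor of mesothelial and ovarian tumor cells, that otherwise met the limits on mitochondrial, hemoglobin and leukocyte RNA at 800 or more genes, had 254, 244, 1415 and 851 CPM. The order of the libraries labelled siFXR1-LNA was the same in all 3 classes.

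Next, the number of UMIs per barcode was compared across classes of the same library, a quantity that, unlike CPM, is not scaled by the other RNA of a barcode. Deeper barcodes were gated by lists of markers of a cell type, at least 3 detected and a lead of 1.5-fold over the next list, and barcodes with at least 20% hemoglobin formed a class of their own. In siFXR1-LNA replicate 1 the 6 genes together gave 2.24 UMIs per shallow marker-free barcode (95% Poisson interval 2.23 to 2.26). The shallow barcodes that failed only the marker part of the rule gave 2.26 (2.22 to 2.30), and the hemoglobin-dominated barcodes gave 2.36 (2.32 to 2.39).

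Barcodes gated on T cell, macrophage, B cell and neutrophil genes gave 2.50, 2.53, 2.60 and 2.74 UMIs of the 6 genes. Those gated on tumor or mesothelial genes gave 5.98 (5.85 to 6.12), clearly above the rest. The leukocyte-gated and hemoglobin-dominated barcodes, which had 2398 to 6073 UMIs each on average, thus carried nearly the same number of these molecules as the shallow ones, which had 1231.

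Ccn2 and Tfrc showed the pattern gene by gene. Ccn2 gave 0.943 UMIs per shallow marker-free barcode, 0.958 in the marker-positive, 1.02 in the hemoglobin-dominated, 1.12 in the T cell-gated and 2.59 in the tumor- or mesothelial-gated barcodes. Tfrc gave 0.731, 0.732, 0.755, 0.805 and 2.09 in the same order. Sprr1a was an exception in the 123 barcodes gated on T cell genes, at 0.0569 from 7 UMIs, against 0.119 in the shallow marker-free barcodes.

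In the library labelled siFXR1-LNA replicate 2, the 6 genes gave 0.970 UMIs (0.901 to 1.04) per shallow marker-free barcode, 0.956 in the marker-positive, 0.984 in the hemoglobin-dominated, 1.06 to 1.14 in barcodes gated on B cell, dendritic cell, neutrophil or T cell genes, and 1.32 in those gated on macrophage genes. Barcodes gated on tumor or mesothelial genes gave 5.64 (5.37 to 5.91). The tumor- or mesothelial-gated barcodes again stood above all others.

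In siCont replicate 1 the values were 0.219 in the shallow marker-free, 0.201 in the marker-positive, 0.199 in the hemoglobin-dominated, 0.170 in the T cell-gated and 0.217 in the B cell-gated barcodes. They were higher in macrophage-gated (0.617), mast cell-gated (0.459) and tumor- or mesothelial-gated barcodes (1.96). In siCont replicate 2 the class had 0.0533 from 8 UMIs, the marker-positive and hemoglobin-dominated barcodes both 0.0811 and the macrophage-gated ones 0.226, and too few barcodes passed the tumor or mesothelial gate for a profile. In every library the shallow marker-free, shallow marker-positive and hemoglobin-dominated barcodes were thus close to each other, except that the class of siCont replicate 2 rests on 8 UMIs, while the level itself differed between libraries.

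**Figure D3:**
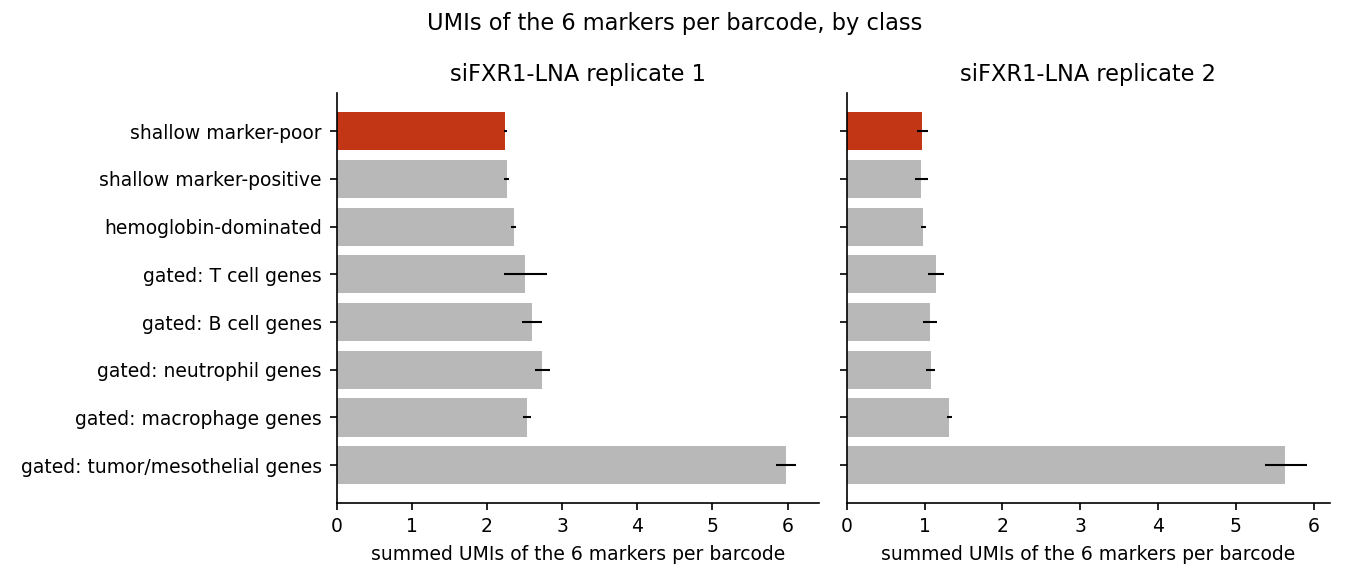
Mean UMIs per barcode summed over the 6 leading genes (horizontal axis from 0) for each class of barcodes in both libraries labelled siFXR1-LNA, with 95% Poisson intervals. In siFXR1-LNA replicate 1 the shallow marker-free barcodes stand at 2.24 and the barcodes gated on tumor or mesothelial genes at 5.98, and in replicate 2 they stand at 0.970 and 5.64.

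In siFXR1-LNA replicate 1 the near equality of shallow and hemoglobin-dominated barcodes went beyond the 6 genes. Of 1227 genes with at least 100 CPM in the class, all had between 0.8 and 1.25 times as many UMIs per barcode in the marker-positive shallow barcodes, and 84.8% did in the hemoglobin-dominated barcodes, where the median ratio was 1.11. No gene was below 0.8 times the class in the barcodes gated on macrophage, neutrophil or B cell genes, whereas 1.79% were in those gated on T cell genes and 0.0815% in those gated on tumor or mesothelial genes. Most genes were above 1.25 times the class in gated barcodes, 94.5% for macrophage, 83.0% for B cell, 77.8% for neutrophil and 74.7% for T cell genes. In the 8485 deeper barcodes that passed no gate 100% were, with a median ratio of 2.00. The abundant genes of the class were thus about as frequent per barcode in the other shallow barcodes and mostly so in the hemoglobin-dominated ones. In the gated barcodes they were mostly more frequent, with the exceptions counted here. The siCont libraries differed. In the hemoglobin-dominated barcodes 29.8% of 1475 genes were below 0.8 times the class in siCont replicate 1 and 90.0% of 1587 in siCont replicate 2, and in the marker-positive barcodes 13.2% and 37.0% were. In siFXR1-LNA replicate 2 the shares were 0.979% and 5.73% of 1430 genes.

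Individual genes differed in how much they were raised in the gated barcodes of siFXR1-LNA replicate 1. Malat1, a nuclear long noncoding RNA, gave 1.47 UMIs per shallow marker-free barcode, 8.13 in T cell-gated, 21.2 in macrophage-gated and 46.9 in tumor- or mesothelial-gated barcodes. Mitochondrial genes gave 4.27 UMIs against 34.5, 81.7 and 116. Vegfa, the angiogenic growth factor, gave 0.656 against 0.764, 1.21 and 2.72. RNA of the nucleus and mitochondria was much scarcer in the class than in gated barcodes, and Vegfa differed less.

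Whether the barcodes drew on a single RNA pool was then described from the number of barcodes in which a gene appeared. All barcodes were thinned to 500 UMIs, and the share with a UMI of a gene was set against the share that a common pool of that library would give. In siFXR1-LNA replicate 1, Ccn2 was present in 31.8% of the class and 31.9% was given by the common pool, and Tfrc in 25.6% against 25.7%. Car9 was present in 4.72% against 4.76%, Stbd1 in 4.68% against 4.70%, Sprr1a in 4.71% against 4.76% and Ndufa4l2 in 8.24% against 8.30%. Ccn2 and Tfrc were thus present in nearly as many barcodes as a common pool gives. For the 4 scarcer genes the share detected is almost set by their mean level, so it does not tell an even from an uneven spread.

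Over 2512 genes in that library, 0.119% had a share below 0.9 times that of the common pool. The figure was 0.119% again in the 16907 barcodes with 600 to 700 genes, and 0.316% in the marker-positive shallow barcodes. It was 1.20% to 2.98% in barcodes gated on T cell, B cell, neutrophil or macrophage genes and 3.03% in those gated on tumor or mesothelial genes. These genes start at 50 CPM, and for the scarcer of them the share detected is again almost set by the mean level. A low figure therefore does not show that the barcodes share a common pool. Numbers of barcodes differ between these classes, so the values stand as a description.

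In the other libraries, with far fewer barcodes, more genes fell short of a common pool. The share of genes below 0.9 times the common pool was 4.00% in siCont replicate 1, 19.5% in siCont replicate 2 and 2.73% in siFXR1-LNA replicate 2. In the 110 barcodes of siCont replicate 1 with 600 to 700 genes this share was 7.88%. The 123 T cell-gated barcodes of siFXR1-LNA replicate 1, which were deeper with a median of 2176 UMIs, gave 1.20%. The part of the number and depth of barcodes in this share was not tested, so libraries are not ranked by it. In siCont replicate 2, Ppbp, a platelet chemokine, was present in 9.001% of the class against 36.3% from a common pool, and Cma1, a mast cell protease, in 35.4% against 65.2%. Platelet RNA was concentrated in few of those 150 barcodes, as 10.7% had 3 or more UMIs of the platelet list where a common pool gives 72.4%. The variance of the summed 6 genes over their mean was 0.996, 1.20, 1.05 and 1.14 in the 4 libraries, where Poisson counts give 1. At 0.219 and 0.0533 UMIs per barcode in siCont replicates 1 and 2, the ratio there cannot tell an even from an uneven spread. In siFXR1-LNA replicates 1 and 2 it was 12.3 and 56.1 for hemoglobin and 2.90 and 17.0 for the mast cell list. For the tumor or mesothelial list it was 1.05 and 0.953 there. That of the platelet list reached 45.4 in siCont replicate 2.

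**Figure D4:**
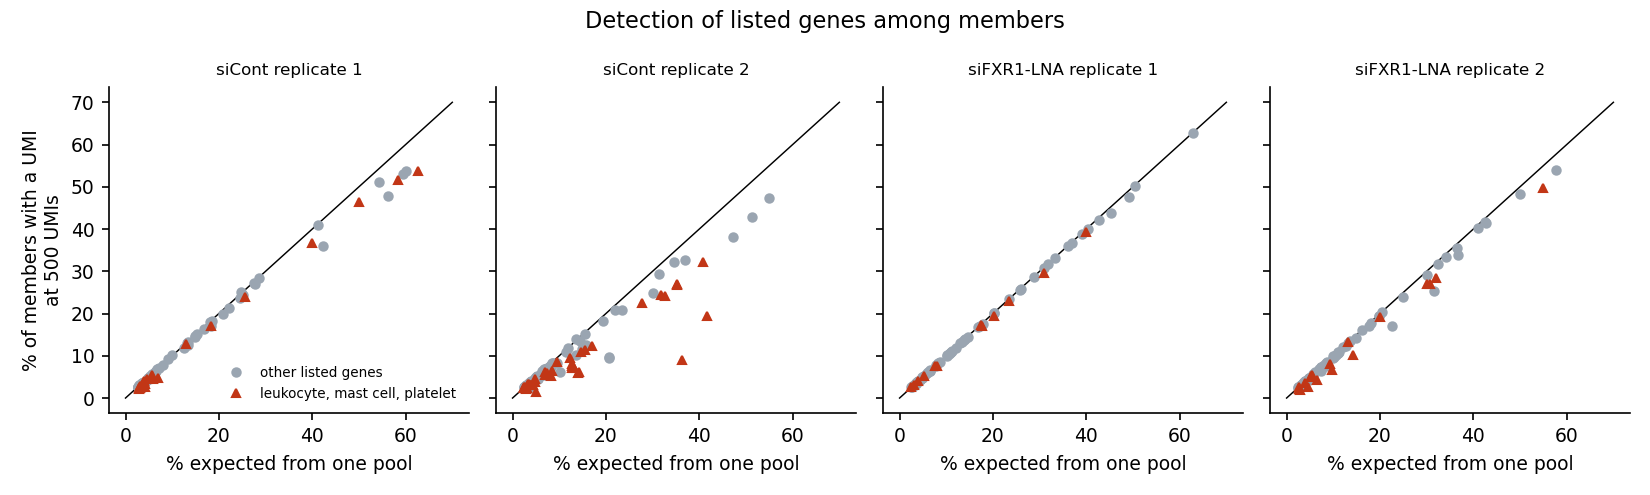
Percent of shallow marker-free barcodes with a UMI of a gene after thinning to 500 UMIs (vertical axis) against the percent given by a common pool (horizontal axis), for listed genes of 50 to 2000 CPM, a panel per library, with triangles for leukocyte, mast cell and platelet genes. Points of siFXR1-LNA replicate 1 lie along the diagonal, and in siCont replicate 2 Ppbp lies far below it, at 9.001% against 36.3%.

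The marker part of the rule can be set against a common pool in the same way. Of the shallow barcodes of siFXR1-LNA replicate 1 that met the other limits, 80.6% had no UMI of Ptprc, Cd79a, Cd3e or C1qa, and 80.1% was given by a common pool. In siCont replicates 1 and 2 and siFXR1-LNA replicate 2 the shares were 26.8%, 21.3% and 57.1%, against 18.8%, 8.40% and 51.7%. Marker-free barcodes were in excess of the pool in every library, by the least in siFXR1-LNA replicate 1. Few barcodes were free of leukocyte RNA altogether, since 2398 of that library's 25466 (9.42%) had no UMI of any of 69 leukocyte, mast cell and platelet markers, where a common pool gives 7.93%, and 59.4% had a UMI of S100a8 or S100a9. In the other libraries 4, 5 and 23 barcodes had none of the 69.

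To see whether the pooled RNA of the class resembled a mixture of the cell types of its library, it was fitted as a weighted sum of profiles. These were the profiles of the gated and hemoglobin-dominated classes with at least 50 barcodes. All genes entered except Ptprc, Cd79a, Cd3e, C1qa, S100a8 and S100a9, so hemoglobin and mitochondrial genes stayed in. In siFXR1-LNA replicate 1 the fit gave weights of 41.0% to T cell-gated, 18.5% to neutrophil-gated, 17.6% to tumor- or mesothelial-gated, 9.95% to hemoglobin-dominated, 9.30% to B cell-gated and 3.74% to macrophage-gated barcodes. It left 19.6% of the UMIs on the wrong genes. In siCont replicates 1 and 2 and siFXR1-LNA replicate 2 this share was 18.0%, 19.9% and 17.5%. With hemoglobin and mitochondrial genes left out, it was 9.61%, 17.9%, 6.11% and 9.44% in siCont replicates 1 and 2 and siFXR1-LNA replicates 1 and 2. The libraries were thus alike in this share over all genes and differed without those genes.

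The weights depended on the method. Non-negative least squares gave 51.0% to B cell-gated, 23.3% to neutrophil-gated and 0% to tumor- or mesothelial-gated barcodes in siFXR1-LNA replicate 1, and most of the rest to T cell-gated ones. Adding the barcodes gated on erythroid genes gave these 24.5% and left 7.29% to tumor- or mesothelial-gated and 0.266% to macrophage-gated barcodes. The weights are therefore not read as shares of cells.

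Leukocyte lists fell short of the fit in siFXR1-LNA replicate 1, where Ptprc, Cd79a, Cd3e, C1qa, S100a8 and S100a9 were left out. The T cell list summed to 11.05 CPM against 846 CPM in the fit, the B cell list to 23.9 against 453 CPM and the neutrophil list without S100a8 and S100a9 to 976 against 5170 CPM. The rule removed barcodes with markers of these cells. The shallow marker-positive barcodes, which it removed, had 25.7 CPM of the T cell list and 96.1 CPM of the B cell list, with Cd3e and Cd79a included. The part of the rule in these gaps was not tested.

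Nuclear RNA also fell short of the fit. Malat1 (chr19:5795690-5802672) had 1198 CPM in siFXR1-LNA replicate 1 against 5007 in the fit, and the nuclear RNA list 1286 against 5621. RNAs of the 6 genes ran above the fit, with 1824 against 1122 CPM (1.63-fold), the HIF targets 4346 against 3548 CPM (1.22-fold) and the fibroblast list 1.89-fold. Sprr1a was at 2.09 times, Ndufa4l2 at 1.86, Car9 at 1.71, Tfrc at 1.60, Ccn2 at 1.56 and Stbd1 at 1.53 times its fitted level.

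Genes with at least 50 CPM in the class or in the fit were then compared with the fit. Only 7 of 3559 such genes in siFXR1-LNA replicate 1 exceeded 2 times the fit, while 780 were under 0.5 times it. The 7 were Chchd5, Bgn, Ptgds, Sprr1a, Aqp5, Cldn3 and Cryab, at 2.01 to 2.19 times, and were named after their values were seen. Bgn encodes a matrix proteoglycan, and Cldn3 a tight junction protein of epithelia. In siCont replicate 2 the platelet list stood at 13.1 times its fitted level and the mast cell list at 4.69 times, and in siCont replicate 1 the mast cell list at 3.59 times. In siCont replicate 2 only 12 barcodes passed the platelet gate and 40 the tumor or mesothelial gate, so neither profile was entered. Its mast cell-gated profile was led after Mcpt1 by Zfpm2, Ctnna2, Dync1i1 and Thsd4, which led tumor- or mesothelial-gated profiles of siFXR1-LNA libraries. Nothing is read from its ratios.

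Adding the marker-positive shallow barcodes as a further profile lowered the misplaced share in every library. That profile took 98.5% of the weight and left 1.64% of the UMIs on the wrong genes in siFXR1-LNA replicate 1. In siCont replicates 1 and 2 and siFXR1-LNA replicate 2 it took 85.9%, 66.4% and 86.5% and left 9.66%, 16.8% and 7.39%. On its own, the marker-positive profile left 10.1%, 17.8%, 1.51% and 6.77%, while any other single profile left at least 21.9%. The class most resembled the other shallow barcodes of its library, and in siFXR1-LNA replicate 1 the pooled profiles nearly coincided.

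Without the marker-positive profile, and with hemoglobin and mitochondrial genes left out, the hemoglobin-dominated profile took 74.8%, 32.6%, 99.5% and 67.5% of the weight in siCont replicates 1 and 2 and siFXR1-LNA replicates 1 and 2. Those barcodes had a median of 648 genes in siFXR1-LNA replicate 1, near the 633 of the class.

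Between shallow barcodes with and without a UMI of Ptprc, Cd79a, Cd3e or C1qa, the test across all genes found differences in a single direction. Sums per library were compared with edgeR's quasi-likelihood test with the library as a block, and 92 of 9230 genes (0.997%) were lower in the marker-free class and 0 higher at a Benjamini-Hochberg adjusted p under 0.05. Of all genes, 672 had an unadjusted p under 0.05, and DESeq2 called 60 lower and 0 higher. Iglc2 and Mzb1, which encode an immunoglobulin chain and a B cell protein, had log2 differences of -2.51 and -2.16, and 7 of 8 B cell genes were called. These follow from the removal of Cd79a and Ptprc, and nothing is read from them.

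None of 23 HIF targets or 18 glycolysis genes was called, and their median log2 differences were 0.12 and 0.12 against 0.00 over all genes. The 6 leading genes had log2 differences of -0.12 to 0.22, with a median of 0.01. With the 4 libraries as they are, the hypoxia RNAs were not distinguishable between shallow barcodes with and without a UMI of those leukocyte markers. Without siCont replicate 1 the test called 24 genes, and without siFXR1-LNA replicate 1 it called 155.

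**Figure D5:**
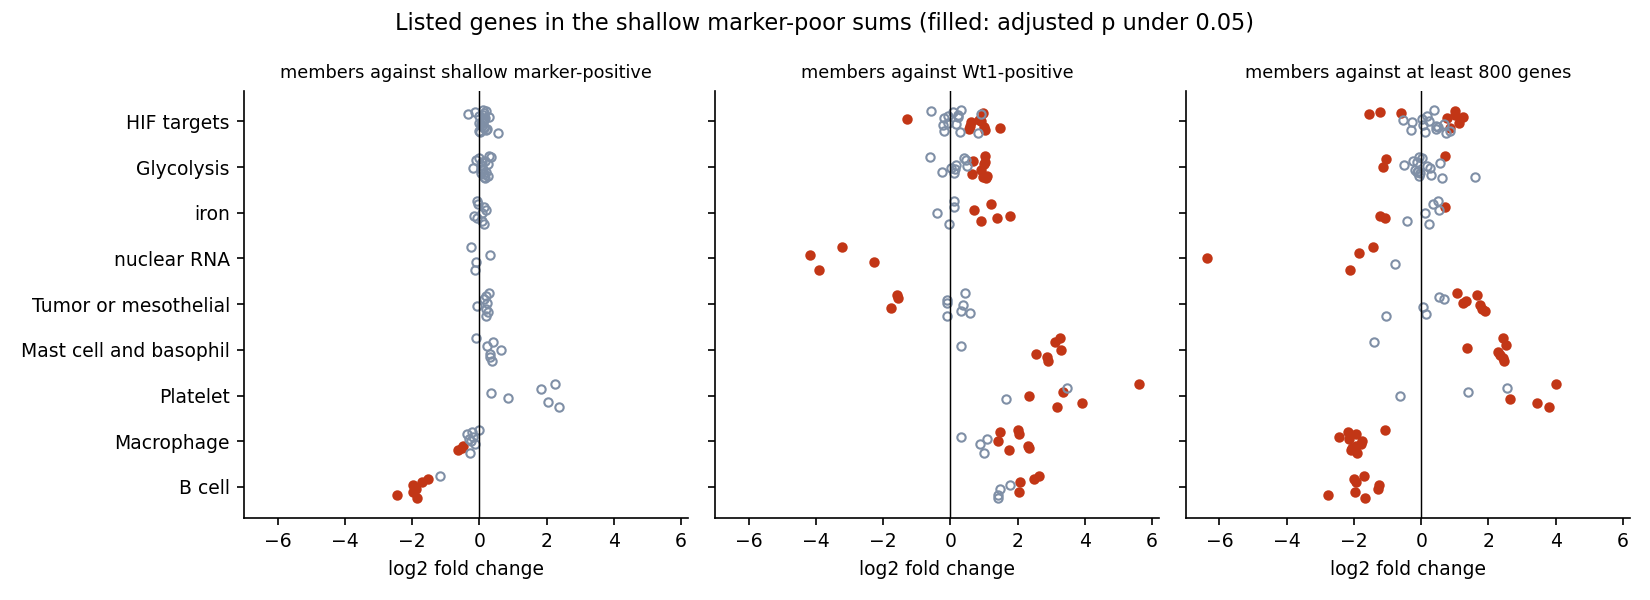
Log2 fold changes of listed genes (a point per gene, horizontal axis) in shallow marker-free barcodes against shallow marker-positive, Wt1-positive and deeper barcodes, by gene list, with filled points at an edgeR adjusted p under 0.05. HIF targets have medians of 0.12, 0.30 and 0.41 in the 3 comparisons, and nuclear RNAs lie below 0 against Wt1-positive and deeper barcodes.

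Against the deeper barcodes, which include the leukocyte-gated and the Wt1-positive ones, HIF targets stood higher in part. Ndrg1, a stress gene of the hypoxia response, had 55.0, 74.5, 742 and 385 CPM in the class in siCont replicates 1 and 2 and siFXR1-LNA replicates 1 and 2, and 21.3, 15.3, 491 and 197 CPM in the deeper barcodes. It was higher in the class in all 4 libraries, and the log2 fold change was 1.24 ± 0.24 (SE; edgeR adjusted p = 0.00151). Vegfa had 52.8, 18.6, 533 and 436 CPM against 17.3, 13.7, 397 and 217 CPM, also higher in all 4, and its log2 fold change was 1.01 ± 0.24 (SE; edgeR adjusted p = 0.00623).

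In total 6 of 24 HIF targets rose and 3 fell, beside 1518 genes that rose and 2728 that fell of 16826 tested (25.2% called, 9.02% higher and 16.2% lower). Those that rose were Ndrg1, Epas1 (1.12), P4ha2 (1.00), Vegfa, Bnip3 (0.84) and Mxi1 (0.76), and those that fell included Pfkfb4 (-1.56) and Plin2 (-0.60), each value a log2 fold change. The median over the list was 0.41, beside -0.13 over all genes. Bnip3 encodes a mitophagy receptor, P4ha2 a collagen prolyl hydroxylase and Plin2 a lipid droplet protein.

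Glycolysis genes did not move together, as 1 of 19 gene identifiers rose (Tpi1, log2 fold change 0.71) and 2 fell (Pfkfb3, -1.15, and Slc16a3, -1.06), with a median of -0.06 that DESeq2's scaling moved to 0.02. With 1 library left out, 4 to 8 HIF targets rose. The fold changes between the class and the deeper barcodes differed between the groups for 250 genes (1.49% of 16826; 33 or 0.196% higher and 217 or 1.29% lower), and for 0 of 24 HIF targets, by an interaction term in edgeR. Without the library block, no HIF target was called and the test called 99 genes in all, 6 higher and 93 lower. With DESeq2, 45.9% of the genes called were higher, against 35.8%, and with 6 abundant genes left out 28.0% were.

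RNAs of tumor or mesothelial cells were higher in the class than in the deeper barcodes. Krt19, a keratin of simple epithelia, had 411, 242, 278 and 270 CPM against 114, 37.2, 146 and 81.2 CPM. Upk3b, a uroplakin of mesothelium, had 640, 168, 299 and 198 CPM against 181, 40.7, 151 and 61.8 CPM. Both were higher in all 4 libraries, with log2 fold changes of 1.81 and 1.66.

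Of 12 such genes 7 rose and 0 fell, with a median log2 fold change of 1.15. Krt18 (1.90), Krt8 (1.74), Msln (1.33), Lrrn4 (1.24) and Wt1 (1.05) were the other 5, where Msln encodes mesothelin. The count was 7 or 8 with any 1 library left out, and 0 without the library block. The rule removed leukocytes from the class alone, and the deeper barcodes kept theirs, with 11 of 11 macrophage genes lower in the class. The part of that removal in the rises of tumor or mesothelial genes was not tested.

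Mast cell and platelet RNA also differed. Cma1 had 1723, 2030, 41.1 and 200 CPM in the class against 380, 170, 17.7 and 30.9 CPM in the deeper barcodes, and Mcpt4, another mast cell protease, had 1353, 751, 7.46 and 86.4 against 265, 85.4, 3.24 and 8.80 CPM. Both were higher in the class in every library and highest in the siCont libraries. Of 8 mast cell and basophil genes 7 rose, with a median log2 fold change of 2.38, and of 7 platelet genes 4 rose. Ppbp had 2.20, 1068, 9.41 and 68.6 CPM in the class, so platelet RNA lay mainly in siCont replicate 2.

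Stromal RNA showed a similar direction for a few genes. Dcn, a collagen-binding proteoglycan of fibroblasts, had 471, 106, 1110 and 567 CPM in the class and 148, 42.1, 528 and 170 CPM in the deeper barcodes, with a log2 fold change of 1.53. It was higher in the class in each library. Of 6 fibroblast genes 2 rose, Dcn and Pdgfra (1.13), and 0 fell. Of 5 nuclear RNAs 4 fell, with a median log2 fold change of -1.84, while Malat1 had 6332, 4996, 5973 and 4953 CPM in the deeper barcodes and did not pass the test (edgeR adjusted p = 0.0941).

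Against Wt1-positive barcodes, which met the same limits on mitochondrial, hemoglobin and leukocyte RNA as the class but held more genes, HIF and glycolysis genes were higher in the marker-free class in part. Bnip3 had 63.8, 130, 392 and 388 CPM against 19.8, 29.4, 260 and 250 CPM, a log2 fold change of 1.47 ± 0.24 (SE; edgeR adjusted p = 0.00302). Gapdh, a glycolytic enzyme, had 3364, 2775, 5304 and 5985 CPM against 1865, 1582, 3330 and 3735 CPM, a log2 fold change of 1.09 (edgeR adjusted p = 0.00134). Both were higher in the marker-free class in all 4 libraries.

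In total 9 of 24 HIF targets rose and 1 fell, and 9 of 18 glycolysis genes rose and 0 fell, beside 1787 genes that rose and 2326 that fell of 12181 (33.8% called, 14.7% higher and 19.1% lower). The HIF targets that rose were Bnip3, Ankrd37 (1.03), Bnip3l (1.01), Plin2 (0.98), Higd1a (0.92), Hilpda (0.84), Hif1a (0.60), Ddit4 (0.60) and Bhlhe40 (0.55), and Kdm3a fell by 1.30 on the log2 scale. The medians were 0.30 for HIF targets and 0.57 for glycolysis genes, beside 0.01 over all genes. Vegfa and Ndrg1 did not pass the test here, and Vegfa had 75.7, 225, 710 and 755 CPM in the Wt1-positive barcodes.

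These counts varied with the libraries. Without siCont replicate 1 or without siFXR1-LNA replicate 2, 3 HIF targets rose, and without siFXR1-LNA replicate 1, 5 of 22 did. Without the library block 1 HIF target rose and 0 glycolysis genes did. Glycolysis genes that rose numbered 7 to 10 with 1 library left out.

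Nuclear RNA was lower than in Wt1-positive barcodes. Malat1 had 4075, 7463, 1198 and 2668 CPM in the class against 22727, 30138, 13373 and 14205 CPM, a log2 fold change of -2.26. Neat1 (-3.21), Kcnq1ot1 (-3.89) and Mir99ahg (-4.18), further long noncoding RNAs, fell as well, so that 4 of 4 fell, and 4 of 4 fell with any 1 library left out. Kcnd2, a potassium channel subunit, had 282, 149, 58.8 and 78.8 CPM against 5820, 6712, 1707 and 1708 CPM, a log2 fold change of -4.40. The class was thus poor in the nuclear RNAs in which the Wt1-positive barcodes were rich.

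Tumor or mesothelial genes did not move together in that comparison, as 0 of 10 rose and 3 fell (Krt7, -1.77, Upk1b, -1.59, and Muc16, -1.56). Their median log2 fold change was -0.09, and it was 0.13 without siCont replicate 2 and 0.14 without siFXR1-LNA replicate 2. Wt1 itself was in the definition of that class and is not compared. Of mast cell genes 6 of 7 rose, of platelet genes 5 of 7, of macrophage genes 7 of 11, of neutrophil genes 3 of 7, of B cell genes 4 of 8, of T cell genes 3 of 8 and of erythroid genes 4 of 5, beside the HIF and glycolysis genes. The part of these RNAs in the rises of HIF and glycolysis genes was not tested.

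Within the marker-free class, levels were finally compared between the groups. Vegfa had 52.8 and 18.6 CPM in the siCont libraries, against 533 and 436 CPM in siFXR1-LNA replicates 1 and 2, and Ndrg1 had 55.0 and 74.5 against 742 and 385 CPM. Egln3, an oxygen-sensing prolyl hydroxylase, had 44.0 and 37.3 against 214 and 272 CPM. The groups did not overlap for any of the 3. Hilpda, a lipid droplet protein, had 13.2 and 31.0 against 82.4 and 102 CPM. Pgk1, a glycolytic kinase, had 130 and 174 against 450 and 469 CPM. The groups did not overlap for these genes either. The share of all genes for which groups do not overlap was not counted, here or for the genes and sums above.

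The test called 1 of 7590 genes (0.0132%) with edgeR, Saa3 (chr7:46711998-46715700), which encodes an acute phase serum amyloid. Saa3 had 389 and 292 CPM in siCont replicates 1 and 2, against 12275 and 18608 CPM in the siFXR1-LNA replicates. Its log2 fold change was 5.72 ± 0.39 (SE; edgeR adjusted p = 0.0251). It had 624, 762, 28499 and 34460 CPM in the deeper barcodes, so it was higher there in each library. Without siCont replicate 1 or 2 no gene was called, and without siFXR1-LNA replicate 1 or 2 the test called 67 and 483 genes.

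No HIF target (0 of 22) or glycolysis gene (0 of 18) passed the test between groups, where 1269 genes had an unadjusted p under 0.05 and DESeq2 called 252. Their median log2 fold changes were 1.78 and 1.22, beside 0.00 over all genes, and 20 of 22 and 16 of 18 were above 0. The smallest edgeR adjusted p among the HIF targets was 0.118, and DESeq2 called 9 HIF targets and 5 glycolysis genes higher and 0 lower. With the replicate number as a block the test called 1139 genes, among them 13 HIF targets higher and 1 lower and 11 glycolysis genes higher. With no filter on low counts 13 of 24 HIF targets were called higher, and without siFXR1-LNA replicate 1 or 2 the calls were 4 and 11, while without siCont replicate 1 or 2 none was called. The call for HIF targets thus depended on the model and on the libraries used. Hif1a, which encodes the oxygen-regulated subunit of HIF-1, had 106, 118, 107 and 161 CPM, and its groups overlapped.

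Few of the barcodes were shared between libraries. Libraries labelled siFXR1-LNA replicate 1 and 2 had 33 marker-free barcode sequences in common, which is 4.34% of those of replicate 2, siCont replicate 1 and siFXR1-LNA replicate 1 had 11, and siCont replicate 2 and siFXR1-LNA replicate 1 had 5. The other 3 pairs had 0 in common.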

How the data were processed

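For 4 libraries the authors deposited matrices of UMI counts, whole numbers made with Cell Ranger (7.0.0 per the labels) on mm10 and not normalized. Barcodes outside the study's limits of 100 to 4800 genes and 15% mitochondrial UMIs were still present, and the limits were applied here. Doublets were not called. Labels and design text differ on the kit version.

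UMIs were summed per library and class and given as CPM of that sum. Sums were compared with edgeR 4.0.16 (R 4.3.3; quasi-likelihood test after TMM normalization and filterByExpr; adjusted p under 0.05 by Benjamini-Hochberg), with the library as a block for comparisons between classes and none between groups. Libraries, not barcodes, were the replicates. DESeq2 1.42.0 was an alternative. Mixtures were fitted by expectation maximization as multinomial weights over all genes but Ptprc, Cd79a, Cd3e, C1qa, S100a8 and S100a9. Single genes were compared with the fit from 50 CPM. Detection was computed after exact thinning to 500 UMIs and summarized over genes of 50 to 2000 CPM (numpy 2.4.6, scipy 1.17.1). These steps were tested on simulated data, the detection step on a common pool alone. Gene coordinates are from GENCODE (GRCm38) and promoter sequences from RefSeq (GRCm38.p6).

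The class, its 6 genes and the gene lists were chosen with earlier results of these data known. Genes named are the 6 leading genes, Fxr1, genes of the lists, and, per comparison, the 10 largest rises and falls past the threshold with at least 50 CPM in an arm and the same direction in every library. Barcodes gated on erythroid genes were led by immunoglobulin and cell cycle genes in siCont libraries, so they stayed unnamed and out of the mixture. Alternatives were other gene and mitochondrial limits, no filter on low counts, no library block, the replicate number as a block, non-negative least squares, and each library left out. Limits of 5% hemoglobin, leaving out 6 abundant genes and adding the erythroid-gated profile were chosen after seeing the data. Some single-gene values are not reported here.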

Additional observations from a re-analysis of the deposited data

Results flagged for a closer look

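The difference between the shallow marker-free and the deeper barcodes was itself not the same in both groups. As an interaction in edgeR with the library as a block, 33 genes were more raised in the class in the libraries labelled siFXR1-LNA and 217 less raised, of 16826 tested (1.49% called). The count was 25 without siCont replicate 2 and 12 without siFXR1-LNA replicate 1. No HIF target (0 of 24) was among these genes.

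Genes listed here passed the threshold with at least 50 CPM in an arm, and their class-to-deeper log2 ratios did not overlap between groups. Of the 10 largest positive log2 differences, siFXR1-LNA minus siCont, the first were 2.64 for Pltp, 2.61 for Marco, a scavenger receptor, and 2.26 for Naaa. The others were 2.26 for Prg4, 1.95 for Vps13c, 1.95 for Nupr1, 1.90 for H2-DMb1, 1.81 for Cd36, 1.80 for Fcgrt and 1.80 for Scpep1. In the class of siCont replicates 1 and 2, 3 UMIs equal 6.60 and 18.6 CPM. Marco had 17.6 and 0 CPM there and Prg4 had 4.40 and 24.8 CPM, so their differences rest on few UMIs. On the macrophage list 0 of 11 genes passed the test (smallest edgeR adjusted p 0.235). Pltp, a phospholipid transfer protein, had 123, 12.4, 95.7 and 139 CPM in the class in siCont replicates 1 and 2 and siFXR1-LNA replicates 1 and 2, and 633, 548, 141 and 263 CPM in the deeper barcodes. Its level in the class overlapped between groups, whereas in the deeper barcodes it was lower in both libraries labelled siFXR1-LNA.

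The 10 largest negative differences under the same limits were -5.45 for Nos2, -4.74 for Cxcr2, -4.23 for Mmp9, -3.73 for Il1r2, -3.71 for Csf3r, -3.32 for Hdc, -3.29 for Cxcl2, -3.24 for Acod1, -3.11 for Gm5150 and -3.02 for Slfn4. Nos2 had 4.40 and 6.21 CPM in the class in siCont replicates 1 and 2, below the level of 3 UMIs in both. Its deeper barcodes there had 0.266 and 0.617 CPM. Cxcl2 and Acod1 each had 6.60 CPM in the class in siCont replicate 1, the level of 3 UMIs. Of the neutrophil list 4 of 9 genes were lower (median -1.15) and of the platelet list 6 of 7 (median -3.77), beside 1.29% of all genes. Platelet RNA of the class lay mainly in siCont replicate 2, as Ppbp had 2.20, 1068, 9.41 and 68.6 CPM. Cxcr2, a chemokine receptor of neutrophils, had 41.8, 292, 5.33 and 29.2 CPM in the class and 4.27, 24.1, 27.0 and 42.8 CPM in the deeper barcodes. It was above the deeper barcodes in both siCont libraries and below them in both libraries labelled siFXR1-LNA. The rule limits S100a8 and S100a9 in the class but not in the deeper barcodes, and its part in these differences was not tested.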

How the results depend on the processing

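The difference of the share between groups was 3.62 to 46.0 percentage points with 1 library left out. Between groups within the class, DESeq2 called 252 genes, no filter 848, limits of 400 to 1000 genes 0 (1554 at an unadjusted p under 0.05 with edgeR), and leaving out 1 library 0 to 483. With the replicate number as a block 1139 were called. Deviations of same-numbered libraries correlated at 0.342, but with 2 pairs and no label that ties the numbers the samples share only a number. Against marker-positive barcodes the count was 60 with DESeq2, 225 with no filter, 659 with 400 to 1000 genes, 0 without the library block (18 at an unadjusted p under 0.05 with edgeR) and 24 to 155 with 1 library left out. Against Wt1-positive barcodes it was 2453 with a mitochondrial limit of 5%, 2447 without the library block and 1666 to 5324 with 1 library left out, and against deeper barcodes 99 without the block and 2295 to 6455. For the difference between groups of that last comparison it was 74 with DESeq2, 159 with 400 to 1000 genes, 0 without the block (776 at an unadjusted p under 0.05 with edgeR) and 12 to 477 with 1 library left out. There, Gp1bb, Treml1 and Tubb1 had log2 differences of -5.50 to 7.80, -5.52 to 7.08 and -5.08 to 8.19 with 1 library left out, the highest without siCont replicate 2, where the edgeR adjusted p was 1. The mixture of siFXR1-LNA replicate 1 left 6.11% of UMIs misplaced without hemoglobin and mitochondrial genes, 20.9% with non-negative least squares and 1.64% with the marker-positive profile. The causes were not tested. With 2 libraries a group, siCont levels from a few UMIs set the precision. Barcodes free of all 69 markers could not be tested, with fewer than 10 in each siCont library.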

Other observations

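Proliferation genes had lower levels in the libraries labelled siFXR1-LNA, in the class and in the deeper barcodes alike. In the class, the siCont replicates 1 and 2 had a summed level of 1254 and 553 CPM over the list, and the corresponding siFXR1-LNA libraries had 403 and 360 CPM. The deeper barcodes had 686, 545, 286 and 259 CPM, below the class in each library, and 3 of 11 genes were called higher in the class than in the deeper barcodes and 0 lower (edgeR, 9.02% of all genes higher). Top2a, a topoisomerase of dividing cells, had 139, 68.3, 16.3 and 6.36 CPM and Cdk1 had 66.0, 49.7, 13.6 and 7.63 CPM. The groups did not overlap for either gene, but the share of all genes for which this holds was not counted. With edgeR, 0 of 8 proliferation genes passed the test between groups (1269 of all genes at an unadjusted p under 0.05, DESeq2 252 after adjustment), with log2 fold changes of -2.75 to -0.14.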
